A study of Mus musculus with 12 samples.

Results

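Glycolysis and glycogen metabolism were followed through 36 genes in quadriceps, the large thigh muscle, of young mice, old mice given vehicle and old mice given a senolytic drug pair. The genes were chosen by name as rows of the deposited gene count table, each name matched exactly 1 row, and they are 36 of 43346 listed genes. All 36 had enough reads to be among the 16146 genes tested. The set holds 4 transporters of glucose and lactate, 6 genes from hexokinase to phosphofructokinase, 4 bifunctional regulators of phosphofructokinase, 12 genes from aldolase to lactate dehydrogenase, and 10 genes that make, break or regulate glycogen.

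Messenger RNA was sequenced in 12 libraries of C57BL/6 mice, 4 per group. Young mice were 6 months old, with no treatment in the labels. Old vehicle mice were 24 months old and had received by gavage, from month 20, a vehicle made of Phosal 50 (60%) with polyethylene glycol (30%) and ethanol (10%), on 3 days of every 2 weeks. D+Q mice had the same age and schedule, with dasatinib, an inhibitor of tyrosine kinases, at 5 mg/kg and quercetin, a flavonoid, at 50 mg/kg. Age and gavage therefore differed together between young and either old group. Whether every library comes from its own animal is not stated in the labels, so a p-value here measures the spread among libraries, which may be technical.

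Muscle fibres take up glucose through GLUT4, trap it as glucose 6-phosphate and either store it as glycogen or pass it down glycolysis to pyruvate and lactate. Fast fibres, which make up most of mouse quadriceps, hold very large amounts of the glycolytic enzymes. The step catalysed by phosphofructokinase is the main control point, and its strongest activator is fructose 2,6-bisphosphate. That regulator is made and removed by the bifunctional PFKFB enzymes, which carry a kinase and a phosphatase on 1 chain. Glycogen is built by glycogenin, glycogen synthase and the branching enzyme, and is broken down by glycogen phosphorylase, which phosphorylase kinase switches on.

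Library totals ran from 26715140 to 49792488 reads, and 3 reads corresponded to 0.0561 to 0.106 CPM, the scale of reads divided by the scaled library total that is used for levels below. The label of skeletal muscle was borne out by 9 fibre genes, among them Acta1, Ckm and Myh4, whose summed level was between 96315 and 149670 CPM in every library. The 36 genes took from 3.99% to 6.72% of all reads. That share was 5.32%, 6.33%, 4.43% and 3.99% in young replicates 1 to 4, 5.11%, 5.30%, 5.73% and 6.00% in old vehicle, and 6.72%, 5.60%, 6.00% and 4.52% in D+Q, so the 3 groups overlapped.

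The gene of the set that differed most between old vehicle and young was Pfkfb3, and 2 stretches are shown because they carry its annotated starts. The second of these lies inside the gene. The windows hold 250 bases before and 50 bases after a RefSeq start on GRCm38.p6, the mm10 assembly, read 5′ to 3′ on the minus strand of chromosome 2. Capitals mark ACGTG on either strand, the core to which hypoxia-inducible factors bind. The window of Pfkfb4, on the plus strand of chromosome 9, is given for comparison. All 3 paralogues had a fold change of opposite sign, and Pfkfb4 had the smallest edgeR p of them in old vehicle against young.
Pfkfb3, chr2:11553880-11554179: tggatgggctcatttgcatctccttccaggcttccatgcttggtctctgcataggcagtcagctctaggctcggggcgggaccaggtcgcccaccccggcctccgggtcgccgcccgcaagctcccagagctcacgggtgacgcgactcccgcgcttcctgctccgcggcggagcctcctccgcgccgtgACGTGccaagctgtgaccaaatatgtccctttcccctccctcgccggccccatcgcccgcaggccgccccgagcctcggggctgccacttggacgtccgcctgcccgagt
Pfkfb3, chr2:11502041-11502340: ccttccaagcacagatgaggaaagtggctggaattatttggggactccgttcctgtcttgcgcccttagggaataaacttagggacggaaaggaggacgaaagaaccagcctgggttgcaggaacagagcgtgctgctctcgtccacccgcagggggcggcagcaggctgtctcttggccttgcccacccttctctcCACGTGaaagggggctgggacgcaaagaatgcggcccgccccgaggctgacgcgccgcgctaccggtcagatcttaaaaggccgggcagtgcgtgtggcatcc
Pfkfb4, chr9:108991652-108991951: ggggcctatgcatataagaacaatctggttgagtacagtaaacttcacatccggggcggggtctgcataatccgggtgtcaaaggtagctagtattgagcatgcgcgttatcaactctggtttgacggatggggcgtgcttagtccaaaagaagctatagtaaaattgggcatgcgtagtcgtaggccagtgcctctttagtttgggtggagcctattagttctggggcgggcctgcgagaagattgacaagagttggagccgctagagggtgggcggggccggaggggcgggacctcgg

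The first Pfkfb3 window held ACGTG with its first base 60 bases before the start. The second held the palindrome CACGTG, the canonical E-box, in which ACGTG is read on both strands over overlapping bases, the forward match beginning 52 bases before that start. The Pfkfb4 window had no match. The other paralogues, whose windows are not printed, differed in this. No Pfkfb1 window held ACGTG, while Pfkfb2 had windows with ACGTG and a window with CACGTG. RefSeq windows were found for 35 of the 36 genes, 53 windows in all, of which 43.4% held ACGTG and 13.2% held CACGTG on either strand. Of all 32851 windows in the table, 19.6% held ACGTG and 7.15% held CACGTG. The median GC content was 60.3% in the windows of these 35 genes and 52.7% in all windows, and the part of base composition in these shares was not tested. TATAAA was in 5.66% of the 53 windows and 13.6% of all. Counts per gene do not show which Pfkfb3 start was in use in these muscles.

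Levels per length differed widely across the set. RPKM, the reads scaled to gene length and library total, computed here from the counts and the deposited lengths, had a mean over 12 libraries of 5331 for Aldoa, the muscle aldolase, the highest of the 36. Eno3, the muscle enolase, followed at 2970 RPKM, then Pygm, the muscle glycogen phosphorylase, at 2109 RPKM, Pfkm, the muscle phosphofructokinase, at 1495 RPKM and Pgam2, the muscle phosphoglycerate mutase, at 1440 RPKM. These 5 are all muscle forms, and the ranges of neighbouring genes in that order overlapped between libraries. Aldoc, the brain aldolase, was lowest at 0.0813 RPKM.

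**Figure D1:**
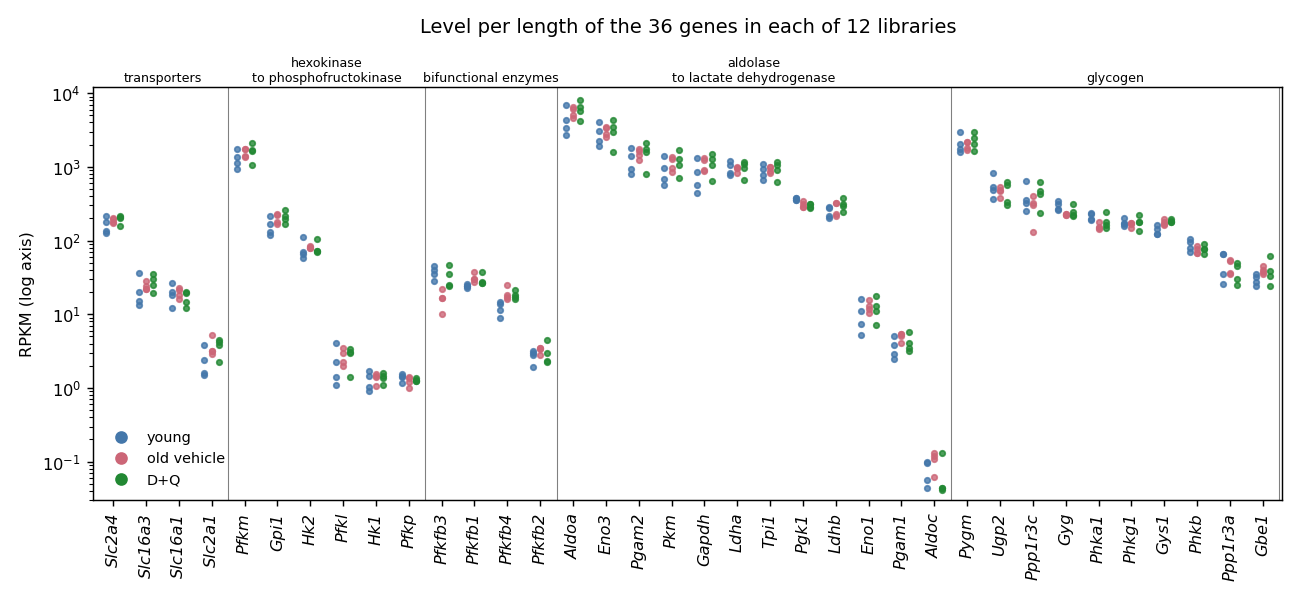
Level per length of each gene (RPKM, log axis) in the 12 libraries, with genes ordered by mean within 5 roles and points coloured by group. Aldoa stands highest at a mean of 5331 RPKM and Aldoc lowest at 0.0813 RPKM, and in most genes the points of the 3 groups lie over each other.

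The muscle paralogue held nearly all of the signal in most pairs. Per length, Pgam2 made up 99.6% to 99.8% of Pgam2 plus Pgam1, Eno3 99.5% to 99.7% of Eno3 plus Eno1, and Pfkm 99.7% to 99.8% of the phosphofructokinase subunits over all libraries. Hk2, the insulin-responsive hexokinase, held 97.2% to 99.2% of Hk2 plus Hk1, and Slc2a4, which encodes GLUT4, held 97.4% to 98.9% of Slc2a4 plus Slc2a1. The lactate dehydrogenases were more mixed. Ldha, whose subunit favours lactate formation, held between 78.4% and 81.3% of Ldha plus Ldhb in young, from 74.7% up to 81.8% in old vehicle, and in D+Q from 69.3% up to 82.9%. The monocarboxylate transporters were the most variable pair, with Slc16a3, the lactate exporter MCT4 of fast fibres, holding between 35.9% and 74.8% of Slc16a3 plus Slc16a1 in young, from 49.9% up to 60.2% in old vehicle, and in D+Q from 50.0% up to 74.4%. The transcripts of Slc16a3 and Slc16a1 have 56.6% and 42.9% GC. Within young and within D+Q, the share of Slc16a3 rose with the library's slope on GC, which is given below. The part of GC in this share was not tested. In none of the 8 paralogue groups compared in this way, Aldoa with Aldoc included, did any pair of the 3 groups of mice separate.

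The comparison of old vehicle with young muscle asked which of these genes differed with age and gavage together. Pfkfb3, which encodes the PFKFB isoform with the highest kinase activity relative to its phosphatase, was the only member that passed the threshold, and it was lower in old muscle. It stood at 263, 347, 305 and 211 CPM in young replicates 1 to 4 and at 75.5, 127, 169 and 126 CPM in old vehicle. Every old vehicle library lay below every young library. The edgeR log2 fold change was -1.18 ± 0.26 SE, 2.26-fold lower (adjusted p = 0.0411). Of all tested genes 1.86% were called in this comparison and 0.65% were called lower, against 1 of 36 here, with 0 members among the 1.21% called higher. DESeq2 called 3 members, Pfkfb3, Pfkfb4 and Gys1, beside 4.17% of the genes it tested, and limma-voom called Pfkfb3, beside 1.71%. The gene lies on chromosome 2 from 11471433 to 11554077 of mm10. RNA of whole muscle was measured, so fewer cells of a type and less RNA per cell cannot be told apart.

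The Pfkfb3 call was close to the threshold. Its direction held in all 22 other settings tried, with log2 fold changes from -1.36 to -0.998, and it was called in 13 of them (adjusted p from 0.000992 with DESeq2 to 0.115). Among edgeR fits with 1 library removed, the call was lost on removing young replicate 1 (adjusted p = 0.0851) or 3 (adjusted p = 0.110). The same happened on removing old vehicle replicate 1 (adjusted p = 0.0894), 2 (adjusted p = 0.104) or 4 (adjusted p = 0.115) and D+Q replicate 2 (adjusted p = 0.0666). The other settings without the call were the 2-group fit (adjusted p = 0.0520), the replicate block (adjusted p = 0.0680) and the fit without 4 libraries together (adjusted p = 0.0544).

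The 3 paralogues of Pfkfb3 had positive fold changes, none past the threshold. Pfkfb4 had 45.6, 49.2, 37.7 and 30.0 CPM in young and 53.3, 57.3, 61.7 and 83.1 CPM in old vehicle. All 4 old vehicle libraries were above all 4 young ones, with a log2 fold change of 0.65 ± 0.18 SE (edgeR adjusted p = 0.0869). DESeq2 called Pfkfb4 (adjusted p = 0.0171). Pfkfb1, the isoform of liver and muscle, had 95.7, 96.0, 91.5 and 103 CPM in young and 149, 120, 109 and 122 CPM in old vehicle, again without overlap. Its log2 fold change was 0.37 ± 0.13 SE (edgeR adjusted p = 0.193). Pfkfb1 overlaps Apex2, whose reads came to 7.37% of its own. Pfkfb2, the heart isoform, had 14.0 to 23.3 CPM in young and 20.1 to 25.6 CPM in old vehicle, which overlapped, and it shares its position with Yod1 and Gm29427, whose reads came to 30.5% and 22.1% of its own. In levels per length, Pfkfb3 was above Pfkfb1 in all 4 young libraries, at 27.9 to 45.9 RPKM against 22.8 to 25.6 RPKM. It was below Pfkfb1 in all 4 old vehicle libraries, at 9.99 to 22.4 RPKM against 27.0 to 37.1 RPKM.

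**Figure D2:**
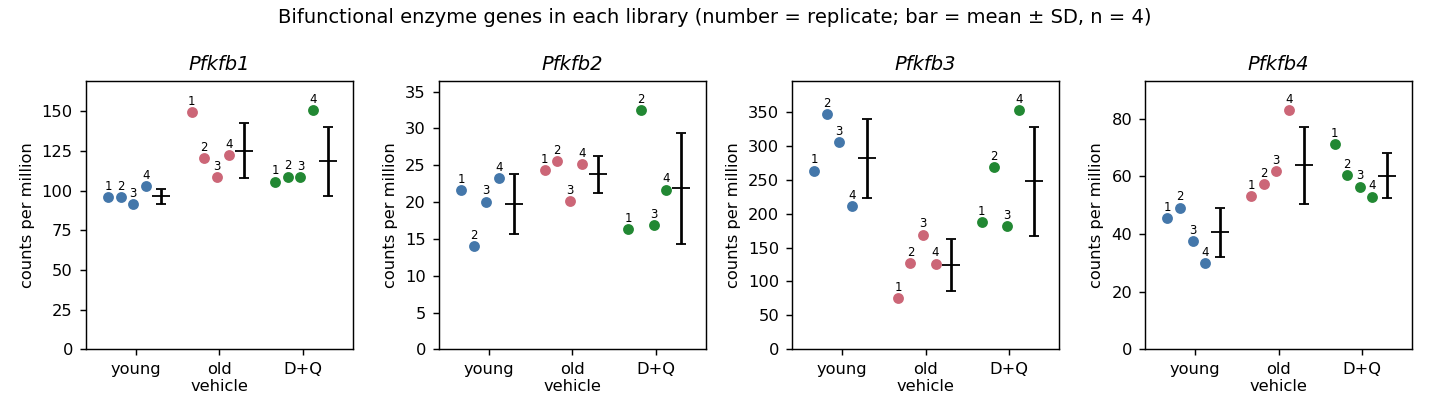
Levels in CPM of the 4 PFKFB genes in each library, by group, with the replicate number above each point and a bar for the mean ± SD of 4 libraries. Pfkfb3 is lower in all old vehicle libraries (75.5 to 169 CPM) than in young (211 to 347 CPM), and D+Q libraries span 182 to 353 CPM.

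Genes of glycogen metabolism had small fold changes of both signs, and none of the 10 was called by edgeR. Gys1, the muscle glycogen synthase, had 685, 781, 584 and 589 CPM in young and 794, 784, 859 and 936 CPM in old vehicle. The groups lay close but did not overlap (log2 fold change 0.35 ± 0.11 SE, edgeR adjusted p = 0.133, and adjusted p = 0.0298 with DESeq2). Gyg, glycogenin, the protein primer of glycogen, had 616, 627, 734 and 807 CPM in young and 541, 534, 521 and 517 CPM in old vehicle. Old vehicle libraries were all lower, within a narrow range (log2 fold change -0.40 ± 0.13 SE, edgeR adjusted p = 0.157).

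Phka1, the muscle alpha subunit of phosphorylase kinase, had 1175, 1210, 1421 and 1486 CPM in young and 970, 1117, 938 and 893 CPM in old vehicle. It too separated the groups without passing (log2 fold change -0.43 ± 0.15 SE, edgeR adjusted p = 0.192). Gbe1, the branching enzyme, is given in full because a later setting called it, and was so chosen after its values were seen. It had 146, 128, 186 and 173 CPM in young and 213, 240, 191 and 200 CPM in old vehicle (log2 fold change 0.41 ± 0.23 SE, edgeR adjusted p = 0.388), also without overlap.

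Pygm had 6534, 9664, 5684 and 5064 CPM in young and 5528, 5822, 7031 and 6887 CPM in old vehicle, so the groups overlapped. The other 5 glycogen genes, the phosphorylase kinase subunits Phkb and Phkg1, Ugp2, which makes UDP-glucose, and Ppp1r3a and Ppp1r3c, which target protein phosphatase 1 to glycogen, overlapped as well. Phkg1 overlaps Chchd2, whose reads came to 36.9% of its own.

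From the transporters to lactate dehydrogenase no gene passed. Pgk1, phosphoglycerate kinase, was the only 1 of these 22 genes with separate groups, at 858, 791, 846 and 795 CPM in young and 705, 777, 647 and 640 CPM in old vehicle. Its log2 fold change was -0.25 ± 0.09 SE (edgeR adjusted p = 0.214). Slc2a1, the basal glucose transporter GLUT1, had 6.83, 10.9, 4.26 and 4.56 CPM in young and 8.98, 8.12, 9.11 and 14.9 CPM in old vehicle. Young replicate 2 lay within the old range (log2 fold change 0.62 ± 0.31 SE, edgeR adjusted p = 0.344).

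The most abundant enzymes were wide in the young group. Aldoa had 11929, 18958, 9356 and 7536 CPM in young and 12495, 13796, 17027 and 17826 CPM in old vehicle, and Pfkm 4046, 5176, 3355 and 2750 CPM against 4031, 4128, 5154 and 5139 CPM. Young replicate 2 was above every old vehicle library for both genes. Slc2a4 had 618, 738, 463 and 442 CPM in young and 594, 623, 696 and 677 CPM in old vehicle, which overlapped. Aldoa, Gapdh, Pgk1, Eno1, Tpi1, Ldha, Pkm and Pgam1 have processed pseudogenes of similar sequence, so their reads may be split between copies in a way that cannot be judged from gene counts. Pfkp overlaps Pitrm1, which held 38999 reads to its 6202, and the strand setting of the counting is not given in the sources used here.

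Over the 36 genes, 24 fold changes were positive and 12 negative, with a median log2 fold change of 0.17 beside -0.01 over all tested genes, of which 49% were positive. An unadjusted edgeR p under 0.05 was reached by 7 members, 19.4%, beside 16% of all tested genes. The groups did not overlap for 8 members, 22.2%, beside 9.36% of all tested genes. These were Pfkfb1, Pfkfb4, Gys1 and Gbe1 on the higher side and Pfkfb3, Pgk1, Gyg and Phka1 on the lower.

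**Figure D3:**
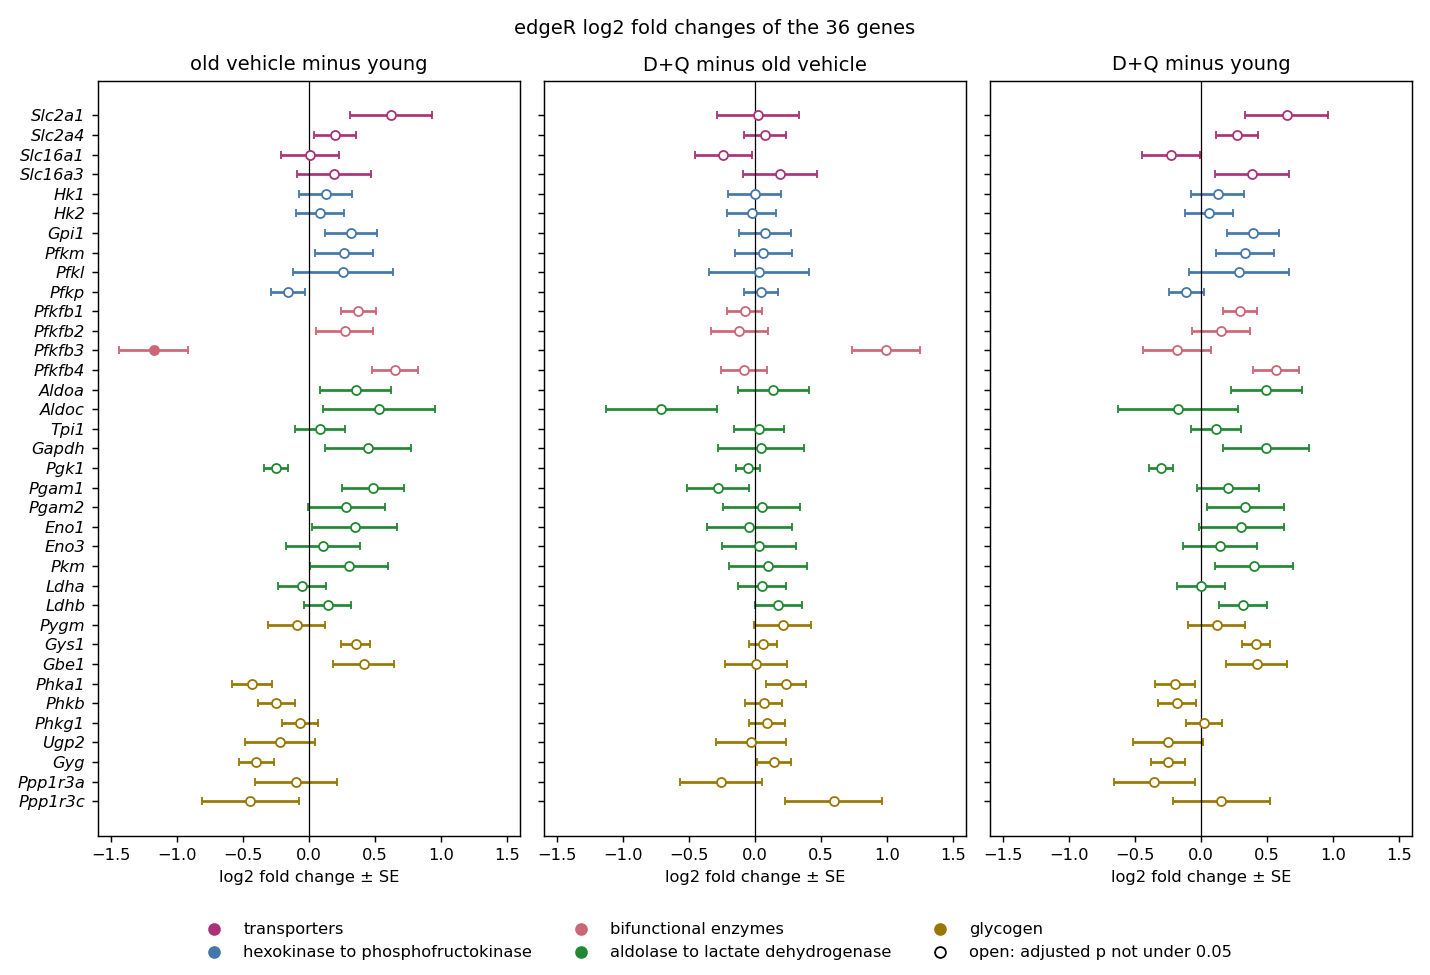
edgeR log2 fold change ± SE of each of the 36 genes in 3 comparisons of groups with 4 libraries each, coloured by role, with filled points for an adjusted p under 0.05. Pfkfb3 in old vehicle minus young, at -1.18, is the only filled point, and in D+Q minus old vehicle it lies farthest to the right, at 0.99.

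The comparison of D+Q with old vehicle asked what the drug pair changed in old muscle. No member was called, and 0% of all tested genes were called by edgeR or by limma-voom, while 2.16% had an unadjusted edgeR p under 0.05. DESeq2 called 9 genes, 0.0465% of those it tested, none of them a member. Pfkfb3 had the smallest p of the 36 and the largest positive fold change, at 188, 269, 182 and 353 CPM in D+Q against 75.5, 127, 169 and 126 CPM in old vehicle. All 4 D+Q libraries were above all 4 old vehicle ones (log2 fold change 0.99 ± 0.26 SE, 1.99-fold, unadjusted p = 0.00233, edgeR adjusted p = 0.9999). It was the only member whose groups did not overlap, 2.78% of the set beside 2.17% of all tested genes.

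Other members varied between D+Q libraries more than they differed from old vehicle. Ppp1r3c had 651, 1281, 1159 and 1684 CPM in D+Q and 822, 1105, 355 and 879 CPM in old vehicle, which overlapped (log2 fold change 0.60 ± 0.37 SE). Aldoc held 18, 6, 6 and 6 reads in the D+Q libraries and 23, 18, 13 and 9 reads in old vehicle, which overlapped (log2 fold change -0.71 ± 0.42 SE). Pgam1, the widespread mutase isoform, had 6.42, 10.7, 7.36 and 5.86 CPM in D+Q and 9.97, 9.38, 7.51 and 10.0 CPM in old vehicle (log2 fold change -0.28 ± 0.23 SE). Phka1 had 1026, 1114, 930 and 1531 CPM in D+Q, and replicate 4 lay above all old vehicle values (log2 fold change 0.23 ± 0.15 SE). Each of these 4 had an edgeR adjusted p of 0.9999. The most abundant gene of each role other than Pfkfb3 also overlapped between the groups. D+Q libraries had 21964, 15595, 18039 and 11668 CPM of Aldoa, 6235, 4923, 4970 and 3150 CPM of Pfkm, 9554, 6579, 7842 and 5239 CPM of Pygm, and 749, 701, 724 and 554 CPM of Slc2a4. In each of these 4 genes D+Q replicate 1 was the highest and replicate 4 the lowest.

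The other 31 members had log2 fold changes between -0.26 and 0.21 in this comparison. The set median was 0.04 and 24 of 36 were positive, beside a median of 0.01 and 53% positive over all tested genes. Standard errors of the members ran from 0.09 to 0.42, so small differences were not detectable for most of them.

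The comparison of D+Q with young muscle shares its libraries with both others. No member was called, against 0.892% of all tested genes, and limma-voom called none either, beside 0.749% of all. DESeq2 called 2, Gys1 and Pgk1, beside 3.61% of the genes it tested. An unadjusted edgeR p under 0.05 was reached by 4 members, 11.1%, against 17.8% of all, and the groups of these 4 did not overlap, against 6.69% of all. Gys1, at 926, 874, 856 and 862 CPM in D+Q, was above all young libraries with the smallest spread of any member in that group (log2 fold change 0.41 ± 0.11 SE, unadjusted p = 0.00225 and above the adjusted threshold of 0.05 in edgeR, but adjusted p = 0.00941 with DESeq2). Pgk1, at 638, 624, 706 and 696 CPM, was below all young libraries (log2 fold change -0.30 ± 0.09 SE, edgeR adjusted p = 0.152, and adjusted p = 0.0367 with DESeq2).

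Pfkfb4 had 71.2, 60.4, 56.4 and 53.0 CPM in D+Q, above all young values (log2 fold change 0.57 ± 0.18 SE, edgeR adjusted p = 0.157). Pfkfb1 had 106, 109, 108 and 151 CPM and was likewise above (log2 fold change 0.29 ± 0.13 SE, edgeR adjusted p = 0.271). Slc2a1 had 11.9, 10.8, 12.6 and 6.46 CPM, and its replicates 2 and 4 lay within the young range (log2 fold change 0.65 ± 0.31 SE, edgeR adjusted p = 0.289). Pfkfb3 overlapped between D+Q and young, with a log2 fold change of -0.18 ± 0.26 SE (edgeR adjusted p = 0.674). Of the 36 members 25 had positive fold changes, with a median of 0.15, beside 49.7% positive over all tested genes. Gyg had 502, 568, 527 and 740 CPM in D+Q and overlapped with young. Without young replicate 2 the count of members called went from 0 to 6, Slc2a1, Slc16a3, Pfkfb4, Aldoa and Gys1 higher and Pgk1 lower, while that over all genes went from 144 to 1935.

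**Figure D4:**
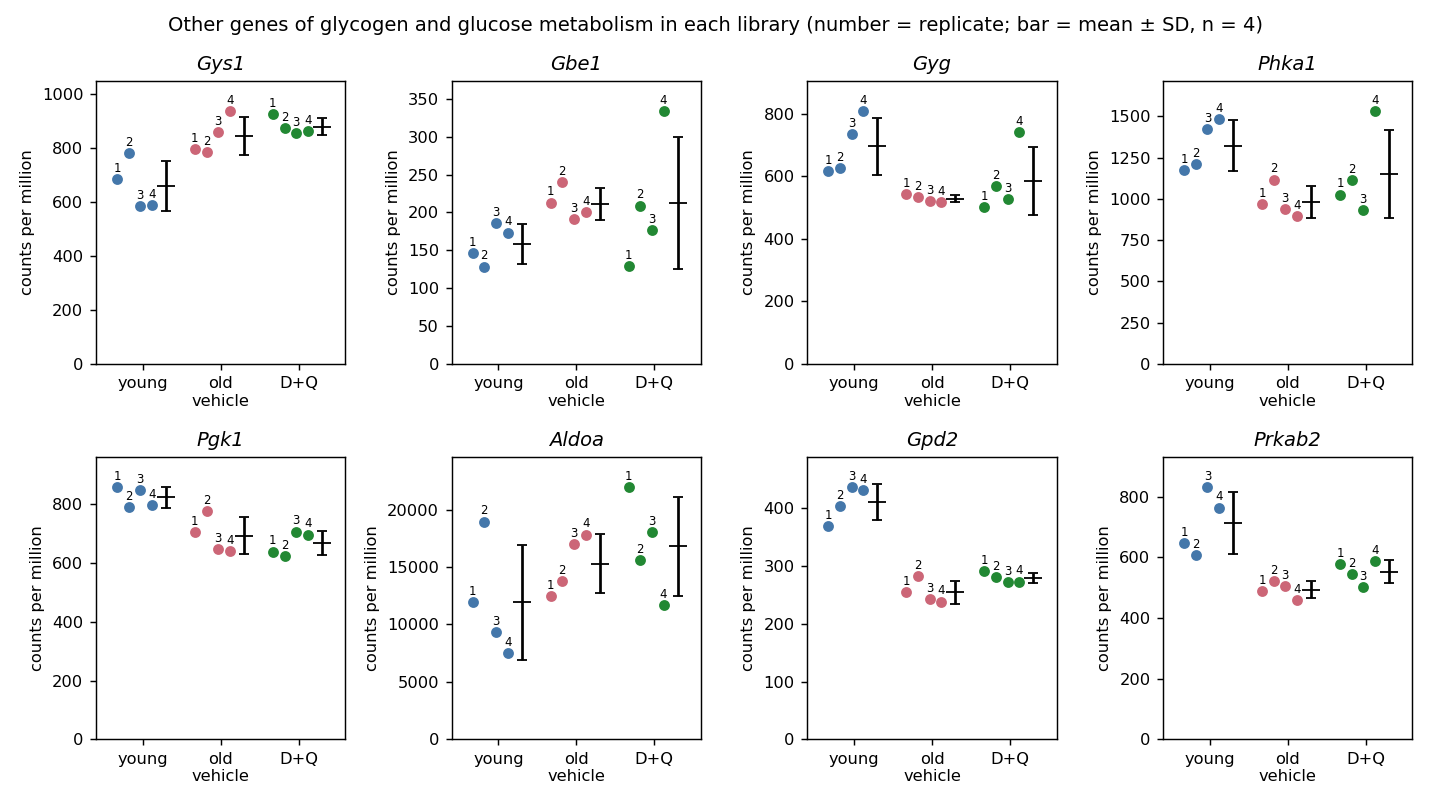
Levels in CPM in each library of 6 members and of Gpd2 and Prkab2, with the replicate number above each point and a bar for the mean ± SD of 4 libraries. Gpd2 is lower in all 8 old libraries (238 to 291 CPM) than in young (369 to 436 CPM), and Aldoa spans 7536 to 18958 CPM within the young group.

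Members were high or low together in libraries of the same group, in an order that followed the GC content of their transcripts. Over all tested genes with a GC value, the slope of a library's deviation on GC ran from -0.511 log2 units per 10 percentage points in young replicate 4 to 0.357 in D+Q replicate 1. The slope was -0.0818, 0.242, -0.388 and -0.511 in young, -0.0892, -0.0792, 0.194 and 0.213 in old vehicle, and 0.357, 0.0773, 0.271 and -0.205 in D+Q replicates 1 to 4. GC content accounted for 4.47% to 43.5% of the variance of a library's deviations over genes. The groups overlapped, but the mean slope was negative in young, at -0.185, and positive in both old groups, at 0.0596 for old vehicle and 0.125 for D+Q.

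The 36 genes ranged in GC from Ppp1r3a at 36.7% GC to Pkm, pyruvate kinase, at 57.7%. In young replicate 4, the library with the steepest negative slope, the 12 members of highest GC had a median deviation of -0.72 log2 units and the 12 of lowest GC one of 0.41. In D+Q replicate 1 the medians were 0.53 and -0.31. Within the young group, 22 of 36 members had their highest value in replicate 2 and 18 their lowest in replicate 4, beside 40.5% and 35.8% of all tested genes. In D+Q, 18 were highest in replicate 1 and 21 lowest in replicate 4, beside 31.1% and 38.1% of all. The sum of the 10 genes of the fast 2B fibre list was high and low in the same libraries, at 134530, 181980, 129010 and 112680 CPM in young, 122280 to 147370 in old vehicle and 190010, 144130, 157640 and 122970 in D+Q. Not every gene of the list followed, as Tnnt3 was lowest in young replicate 1 and D+Q replicate 2. The 10 slow and oxidative fibre genes summed to 10756, 11189, 7330.1 and 8907.5 CPM in young, 8346.1 to 14168 in old vehicle and 8452.6, 13807, 15386 and 9729.2 in D+Q. The part of fibre makeup in these differences was not tested.

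**Figure D5:**
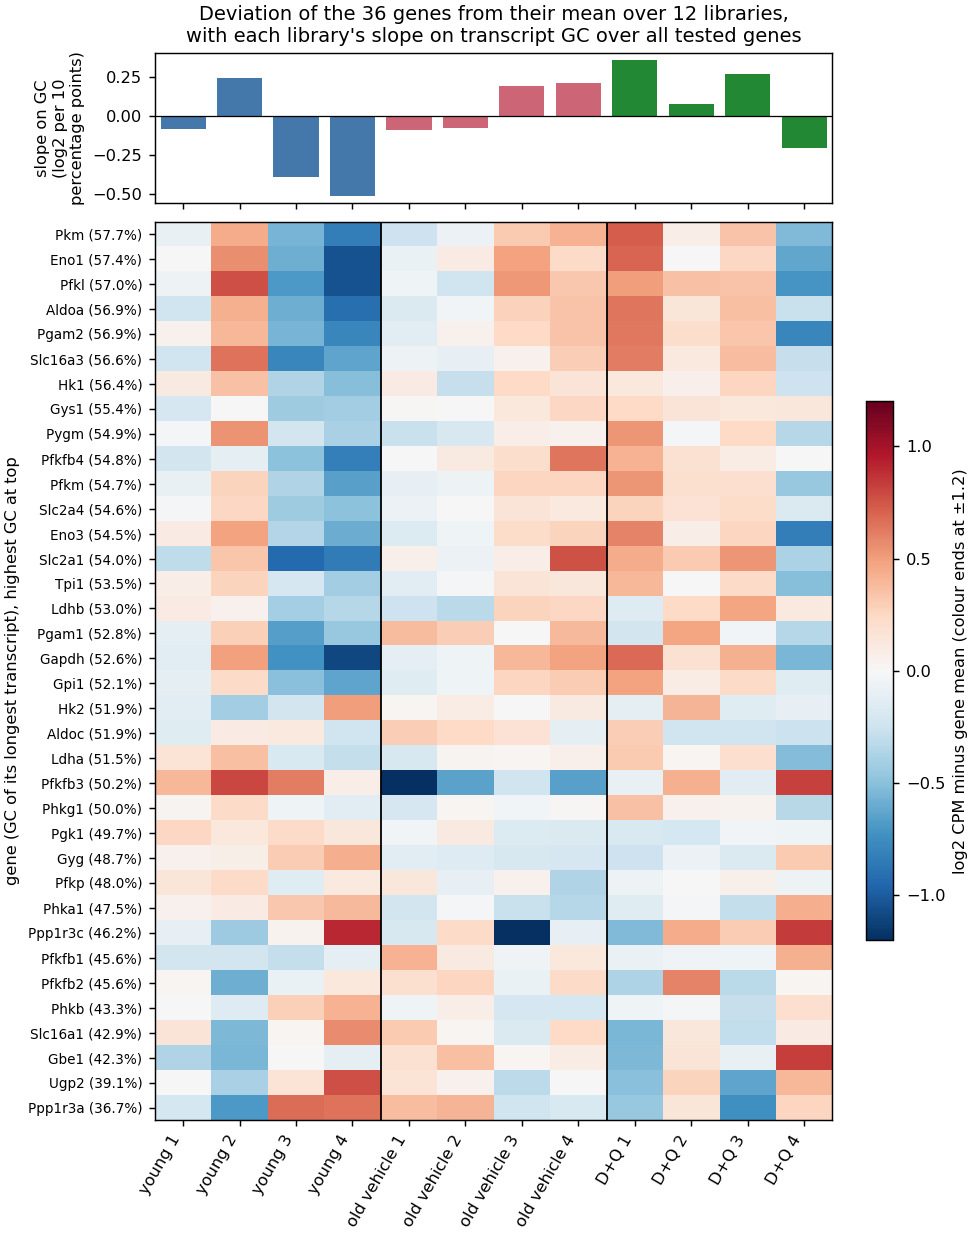
Upper panel: slope of each library's log2 deviation on transcript GC over all tested genes, coloured by group. Lower panel: log2 CPM of each of the 36 genes minus its mean over the 12 libraries, genes ordered by GC from Pkm (57.7%) to Ppp1r3a (36.7%). In libraries with a positive slope, such as D+Q 1 (0.357), the upper genes are high and the lower ones low, and the reverse holds in young 4 (-0.511).

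The sign of a member's difference between old vehicle and young went with its GC content, as it did for all genes. In old vehicle against young, 11 of the 12 members of highest GC and 4 of the 12 of lowest GC had positive fold changes, with medians of 0.28 and -0.19. All tested genes within the same GC bounds had medians of 0.28 and -0.14, with 81.9% and 27.3% positive. When a smooth curve on GC was taken out of each library, a setting chosen after seeing the data, the member medians were 0.11 and -0.03. Of the 12 members in each class, 10 and 6 were then positive, and the medians of all tested genes were 0.09 and -0.002. The curve was fitted to these same libraries, so smaller medians follow from that setting and do not show the source of the differences.

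In that setting edgeR called 4 members between old vehicle and young, beside 649 genes in all. Pfkfb3 was lower, at -1.15 ± 0.25 SE (adjusted p = 0.0247). Pfkfb1 was higher at 0.50 ± 0.10 SE (adjusted p = 0.0159), Pfkfb4 at 0.52 ± 0.11 SE (adjusted p = 0.0236) and Gbe1 at 0.59 ± 0.15 SE (adjusted p = 0.0481), all as edgeR log2 fold changes. The value for Gys1 dropped from 0.35 to 0.19 (adjusted p = 0.177) and that for Aldoa from 0.36 to 0.19. With each library's GC slope as a covariate instead, also chosen after seeing the data, 6 members were called beside 953 genes in all. These were the same 4 with Gys1, higher at 0.25 ± 0.07 SE (edgeR adjusted p = 0.0434), and Pygm, lower at -0.36 ± 0.07 SE (edgeR adjusted p = 0.0163). With the smooth GC curve taken out, no member and no other gene was called between D+Q and old vehicle, and Pfkfb3 had 0.98 ± 0.25 SE (edgeR adjusted p = 0.959).

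Markers of other cell types were measured in all libraries, and the neutrophil marker Ly6g was at 0 in 11 of the 12. The 6 fibroblast genes summed to 933 to 1232 CPM in young, 652 to 840 in old vehicle and 636 to 750 in D+Q. In each old group 2 of them were called lower than in young. Of all tested genes, 0.65% were called lower in old vehicle and 0.365% in D+Q. Of the list, Col1a2 and Col3a1 were lower in every old library than in every young one. Col1a1 was below all young libraries in D+Q but not in old vehicle, while Dcn, Lum and Pdgfra overlapped between young and both old groups. The 6 endothelial genes summed to 302 to 474, 390 to 429 and 382 to 446 CPM, and the 6 adipocyte genes to 381 to 1417, 337 to 687 and 456 to 773 CPM, with no member of either list called. The 8 macrophage genes summed to 96.4 to 139, 104 to 166 and 93.9 to 126 CPM. Of these, 1 was called higher in old vehicle than in young, beside 1.21% of all tested genes. The 6 erythrocyte genes summed to 5.10 to 15.6, 9.29 to 47.4 and 14.9 to 87.6 CPM. Of these, 2 were called higher in D+Q than in young, beside 0.526% of all tested genes. The 5 neutrophil genes summed to 23.9 CPM in D+Q replicate 4, which also had the highest Pfkfb3 level, and to 0.708 to 2.52 CPM in the other 11 libraries. S100a9, the most abundant of them, had 11.025 CPM in that library. Without D+Q replicate 4, Pfkfb3 had a log2 fold change of 0.77 ± 0.25 SE in D+Q against old vehicle (edgeR adjusted p = 0.943). Because Pfkfb3 was highest in that library, leaving it out lowers the fold change whatever the source. The part of the cell types of these lists in the values of Pfkfb3 and Slc2a1 was not tested.

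Beyond the 36 genes, 85 others of the pathway in 4 lists were looked up, and 78 of them were tested. Between old vehicle and young 2 were called lower and 0 higher, beside 0.65% and 1.21% of all tested genes. Between D+Q and young 1 was called lower and 0 higher, beside 0.365% and 0.526% of all. Between D+Q and old vehicle 0 were called, beside 0% of all. Gpd2, the mitochondrial glycerol 3-phosphate dehydrogenase that carries electrons from glycolytic NADH into the respiratory chain, had 369, 403, 436 and 431 CPM in young. It had 254, 282, 242 and 238 CPM in old vehicle and 291, 280, 272 and 273 CPM in D+Q. Every library of both old groups was below every young library.

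The log2 fold change of Gpd2 was -0.69 ± 0.09 SE in old vehicle against young (edgeR adjusted p = 0.00197) and the gene was called in all 22 other settings there. In D+Q against young it was -0.55 ± 0.09 SE (edgeR adjusted p = 0.0128), a call that ended without young replicate 3 (adjusted p = 0.0530) or D+Q replicate 3 (adjusted p = 0.0530) and in 3 further settings. Gpd2 was the gene of the pathway, among those tested here, with the smallest p in both comparisons with young.

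Prkab2, a beta subunit of AMP-activated protein kinase that binds glycogen, had 649, 608, 832 and 765 CPM in young, 490, 522, 506 and 459 CPM in old vehicle and 578, 545, 502 and 587 CPM in D+Q. It was lower in old vehicle (log2 fold change -0.53 ± 0.11 SE, edgeR adjusted p = 0.0290). That call ended in 7 of 12 fits without 1 library, namely young replicate 3 (adjusted p = 0.0910) or 4 (adjusted p = 0.0789), old vehicle replicate 1 (adjusted p = 0.0824), 2 (adjusted p = 0.0675), 3 (adjusted p = 0.0786) or 4 (adjusted p = 0.127), and D+Q replicate 2 (adjusted p = 0.0511), as well as in 3 further settings. In D+Q against young its value was -0.37 ± 0.11 SE (edgeR adjusted p = 0.149).

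The remaining genes did not pass in any of the 3 comparisons. Among 15 tested genes of other glycolysis steps and transporters, Slc16a7 had a log2 fold change of -0.80 ± 0.33 SE in old vehicle against young. Slc2a8 had 0.71 ± 0.35 SE in D+Q against young and Slc2a3 0.78 ± 0.38 SE in D+Q against old vehicle. Slc2a3 stood at 13.1 CPM in D+Q replicate 4, the library with the highest neutrophil sum. It was at 3.19 to 4.92 CPM in the other D+Q libraries and 3.06 to 4.76 CPM in old vehicle. The part of neutrophils in the Slc2a3 value was not tested. Among 20 other glycogen genes, Epm2a, the glycogen phosphatase laforin, had -0.42 ± 0.13 SE in old vehicle against young. Gaa, the lysosomal glucosidase that degrades glycogen, had 0.99 ± 0.33 SE in D+Q against young, and Ppp1r3e had -0.25 ± 0.16 SE in D+Q against old vehicle. Among 14 genes that set the fate of pyruvate, Mpc2, a subunit of the mitochondrial pyruvate carrier, had -0.39 ± 0.15 SE and Pdk1, a pyruvate dehydrogenase kinase, -0.29 ± 0.13 SE in old vehicle against young. Mpc2 had -0.44 ± 0.15 SE and Pdhb -0.23 ± 0.10 SE in D+Q against young, and Dlat -0.14 ± 0.13 SE and Pdk2 0.17 ± 0.19 SE in D+Q against old vehicle. Among 29 regulators, Prkag2 had -0.46 ± 0.13 SE in each old group against young, and Mlxip, a glucose-sensing transcription factor, and Klf15 had 0.27 ± 0.09 SE and 0.51 ± 0.21 SE in D+Q against old vehicle.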

How the data were processed

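Messenger RNA was prepared with a stranded kit, per the labels' protocols. The submitters' processing notes name featureCounts 1.5.1, Subread, the aligner STAR 2.6.1c and the build mm10; for the strand setting, the handling of multi-mapping reads and the annotation, the sources used here give nothing. Every test used the deposited counts, whole numbers of reads per gene. The authors' deposited RPKM values served as a check, each count column being proportional, after division by length, to 1 RPKM column of its group (coefficient of variation at most 0.0864%), and the RPKM table also gave positions and lengths.

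Groups came from the labels. Between libraries of 1 group the mean chi-square over genes was 19.7 to 299, so no library was a copy of another. With edgeR 4.0.16 in R 4.3.3, counts of genes passing filterByExpr (at least 10 reads by its rule and 15 in total) were scaled by TMM and fitted by quasi-likelihood with all 12 libraries, with a call at a Benjamini-Hochberg adjusted p under 0.05 over all 16146 genes. CPM and RPKM printed here use TMM-scaled totals. SE is the log2 fold change over the square root of F. Deviations use log2(CPM + 0.5), and GC content comes from the longest GENCODE M21 transcript, found for 99.2% of tested genes. The fit was also run on simulated data, with no outcome given here. Alternatives were DESeq2 1.42.0, limma-voom (limma 3.58.1), other scalings and filters, 2-group fits, a replicate block, an adjusted p under 0.1, and fits with each library removed in turn; GC settings and the removal of 4 libraries together were chosen after seeing the data. Values in every library are given for called members, for the 5 smallest p per comparison and for the highest RPKM of each role, and other pathway genes are named when called or among the 2 smallest p of their list, apart from some that are not reported here. The members and lists were chosen with earlier results of these data known. List genes were matched by identifier, so Tigar, Adgre1, Pgm1 and Pgm2 may bear another symbol in the deposited table.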

Additional observations from a re-analysis of the deposited data

Results flagged for a closer look

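Groups of 4 libraries for the 36 members, Gpd2 and Prkab2, 114 in all, were searched for a library far from the other 3 of its group, a test that flags about 1 group in 20 by chance. It flagged 4. Hk2 was at 619 CPM in D+Q replicate 2, where the other D+Q libraries had 421 to 434 CPM. Pfkfb1 was at 151 CPM in D+Q replicate 4, against 106 to 109 CPM in the others. Slc2a1 was at 14.9 CPM in old vehicle replicate 4, against 8.12 to 9.11 CPM. Aldoc was at 0.430 CPM in D+Q replicate 1, against 0.133 to 0.142 CPM, at 6 to 18 reads per library.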

How the results depend on the processing

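None of 19 gene results followed, for 11 members and for Gpd2 and Prkab2, turned direction under any of the 22 other settings. These results were picked for a call or a small p in the same data. The settings share most libraries, so a kept direction was likely from the start. The count of members called between old vehicle and young, 1 in the main test, was 2 at a threshold of 0.1, 3 with DESeq2, 0 with only the 2 groups compared, 4 with GC offsets, 6 with the GC slope as a covariate and 0 without young replicates 2 and 4 and D+Q replicates 1 and 4 together. Over all genes the main test called 300 and these settings 566, 744, 188, 649, 953 and 242, in the same order. Without 1 library it ran from 0 to 3, and that of all genes from 146 to 1022. Between D+Q and young, 0 in the main test, it was 2 with DESeq2, 1 with GC offsets, 1 with the GC slope as a covariate and 0 to 6 without 1 library, the 6 being without young replicate 2. Over all genes the main test called 144 there and these settings 590, 333, 332 and 44 to 1935. Between D+Q and old vehicle it was 0 throughout. With the replicate number as a block, 0 members were called in each comparison and Pfkfb3 had -1.22 in old vehicle against young (adjusted p = 0.0680), while the calls of Prkab2 there (adjusted p = 0.111) and of Gpd2 in D+Q against young (adjusted p = 0.0761) also ended, beside 141 and 35 genes called in all against young. Same-numbered libraries correlated over 0.1 in only 4 of 12 pairs, from -0.513 to 0.498, so the numbers were not taken as pairs. Set medians moved by less than the spread between libraries, 0.193 log2 units. In the main test they were 0.17 in old vehicle against young, 0.04 in D+Q against old vehicle and 0.15 in D+Q against young. Each is below that spread, so this cannot show that they were stable. Without 1 library they were 0.08 to 0.29 in old vehicle against young and 0.09 to 0.29 in D+Q against young. In D+Q against old vehicle they ran from -0.03 to 0.15, so the sign was not kept. The causes of these shifts were not tested.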
